A study of Mus musculus with 34 samples.

Results

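The E2F family was followed in the liver of juvenile mice made hypothyroid or hyperthyroid, as the 8 genes E2f1 to E2f8 among the 16535 genes that could be named on the arrays. Members were found by matching the RefSeq accession attached to each probe to a gene symbol, which gave 10 of the 41174 probes: 2 each for E2f1 and E2f3 and 1 each for the other 6 genes. The family was chosen by measured values, namely a fall in goitrogen-treated pups of a probe that the study's own lists name E2f8, so differences of the goitrogen groups from the controls are given here as sizes with no p-value, and nothing is read from their counts of calls. That probe, A_52_P1135379, carries the accession AK158295, a cDNA clone with no RefSeq match here, and it was therefore not a member by the rule. It is reported beside the family as the AK158295 probe, since where it lies relative to the E2f8 transcript was not given in the sources used here. The RefSeq rule left a single probe for E2f8, A_51_P431531. That these 2 probes disagree in goitrogen-treated pups was known when the family was chosen, so their disagreement there is only described.

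Liver RNA of 34 C57BL/6 pups was labelled with Cy5 and hybridised against a Cy3-labelled universal mouse reference, pooled RNA of mouse cell lines, on 34 arrays of 11 slides scanned on 6 days. All pups were taken at postnatal day 15, 4 h after an injection. Control pups (4 males and 4 females) had untreated dams and were given saline. Hyper pups (5 males and 5 females) had untreated dams and were given 50 µg thyroxine (T4) and 5 µg triiodothyronine (T3) per 100 g body weight. Hypo pups (4 males and 5 females) had dams that for the days before collection drank 0.05% methimazole and 1% perchlorate, agents that block thyroid hormone synthesis, and were given saline. Hypo+ pups (4 males and 3 females) had the same goitrogens through the dam and were given 20 µg T4 and 2 µg T3 per 100 g. The study divided the pups so treated by their measured serum T4. Those with T4 like the hyper pups were set apart and not put on arrays. It also removed outlier arrays before its final analysis. The goitrogens reached the pups through the dam, so the pups of 1 dam shared an exposure, and the labels used here do not name the dam. P-values therefore measure the spread between these pups. In whole liver, fewer cells of a type and less RNA per cell cannot be told apart.

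E2F proteins are transcription factors that bind the promoters of genes needed to enter and complete DNA replication. E2F1, E2F2 and E2F3 activate these genes when cyclin-dependent kinases release them from the retinoblastoma protein RB1. E2F4 and E2F5 act mainly as repressors with the related pocket proteins, E2F6 represses with Polycomb group proteins, and E2F7 and E2F8 are atypical members that bind DNA without a DP partner and dampen the same targets. In liver, E2F7 and E2F8 are known for their part in the polyploidisation of hepatocytes, which occurs around weaning.

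E2F7 and E2F8 are themselves targets of the family, and because the 2 genes rose and fell together over the pups, their promoter windows are shown first. Windows run from 250 bases before to 50 bases after a transcript start in RefSeq (GRCm38.p6), written 5′ to 3′ on the gene's strand. Each was searched on both strands for the E2F words TTTCCCGC and TTTGGCGC, given in capitals where found, and for the nuclear receptor half-site AGGTCA. The E2f7 window lies at chr10:110745189-110745488 (+ strand), at the outer start of the gene. The E2f8 window lies at chr7:48881547-48881846 (− strand), and its start site lies 477 bases inside the gene, counted from its outer start.
E2f7: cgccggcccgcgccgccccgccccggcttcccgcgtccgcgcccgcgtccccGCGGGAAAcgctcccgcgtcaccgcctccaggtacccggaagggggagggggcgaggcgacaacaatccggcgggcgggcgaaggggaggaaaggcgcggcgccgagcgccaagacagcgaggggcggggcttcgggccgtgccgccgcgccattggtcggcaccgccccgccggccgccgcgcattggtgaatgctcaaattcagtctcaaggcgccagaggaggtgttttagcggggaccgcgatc
E2f8: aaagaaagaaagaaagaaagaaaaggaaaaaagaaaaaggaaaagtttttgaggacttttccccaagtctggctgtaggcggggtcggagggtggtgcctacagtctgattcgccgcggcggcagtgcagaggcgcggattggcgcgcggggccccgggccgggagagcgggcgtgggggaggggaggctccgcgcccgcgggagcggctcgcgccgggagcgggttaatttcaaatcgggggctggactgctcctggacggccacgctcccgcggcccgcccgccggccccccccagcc

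The E2f7 window held 1 copy of TTTCCCGC, on the minus strand, starting 198 bases before the start site. The E2f8 window held neither E2F word, and neither window held AGGTCA. Of the 8 windows found for the family (6 of the 8 genes), 1 window of E2f3 held TTTCCCGC and 1 window of E2f2 held TTTGGCGC. Over all 32851 windows, 1.07% held TTTCCCGC, 0.514% held TTTGGCGC and 16.3% held AGGTCA. A match is a description of the letters and no match says only that these letters are absent from this window.

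All 10 family probes gave a signal above the background in every pup. The background limit was set on each array from 153 negative control spots, as their 5% trimmed mean plus 3 trimmed SDs, and lay at 85.0 to 106 units in Cy5. The pup signal exceeded this limit on 34 of 34 arrays for each family probe, and the scanner software also called it well above background on all arrays, except for E2f4 and 1 probe of E2f3 (A_51_P487718), each on 31. The brightest relative to the limit were the probes of E2f6, at a median of 20.0 times the limit, and E2f2, at 16.9 times. The probes closest to it were those of E2f3, at medians of 1.32 (A_51_P487718) and 1.77 times (A_52_P508167), followed by 1 probe of E2f1 (A_51_P120636) at 1.78 and E2f4 at 1.85 times. The signal of each probe depends on its own sequence, so the levels of different genes are not ranked.

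The tissue was liver by its markers. All or all but 1 of 6 hepatocyte genes (Alb, Apoa1, Ttr, Ahsg, Fgb and Tat) were above the limit in every pup, and their mean log2 ratio to the reference lay between 3.92 and 5.54. Dio1, the deiodinase that thyroid hormone induces, shows the response to the injection in the same arrays. It was 1.52 ± 0.20 (SE) log2 units higher in hypo+ than in hypo males (limma, adjusted p = 0.0015) and 2.02 ± 0.29 higher in females (adjusted p = 0.00201).

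The 2 probes that have been called E2f8 had different signals over background. In the reference RNA, the RefSeq E2f8 probe gave 5.46 to 14.15 times the Cy3 limit, whereas the AK158295 probe gave 1.22 to 2.11 times. In pup liver the RefSeq probe gave 1.84 to 3.92 times the Cy5 limit over all 34 pups. The AK158295 probe gave a median of 4.90 times in controls, 4.87 in hyper pups, 1.64 in hypo pups and 2.92 in hypo+ pups. No group was at or under the limit for either probe. Background was not subtracted, so ratios of signals this near the limit can be compressed. For the AK158295 probe the reference channel lay close to the limit on all arrays, so its log2 ratio is a ratio to a signal near background.

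**Figure D1:**
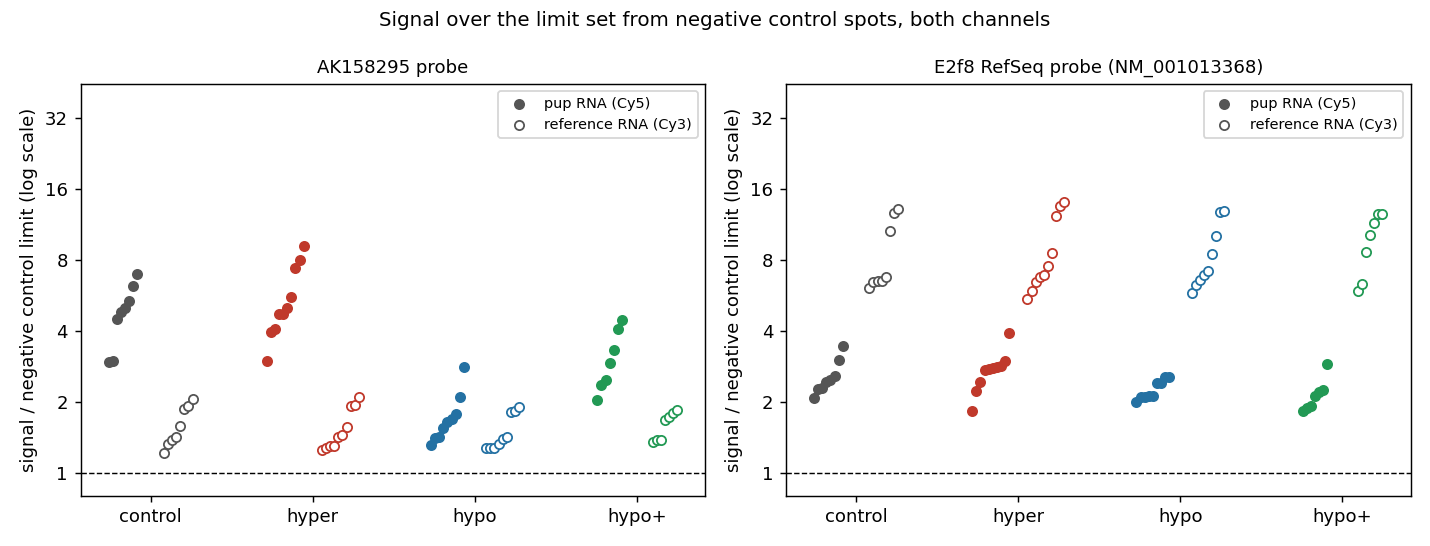
Signal divided by the negative control limit on a log scale, for pup RNA (Cy5, filled) and reference RNA (Cy3, open), 1 point per array and channel, by treatment with both sexes together. The dashed line marks the limit. The AK158295 probe lies between 1.22 and 2.11 times the limit in the reference on every array, and the RefSeq E2f8 probe between 5.46 and 14.15 times.

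The AK158295 probe was lowest in hypo pups. Its log2 ratio was 2.01, 2.42, 1.75 and 2.57 in the 4 control males and 3.04, 1.56, 1.65 and 2.34 in the 4 control females. It was 0.45, 0.51, 0.05 and 0.33 in the 4 hypo males and 0.39, 0.42, 0.92, 0.10 and 1.18 in the 5 hypo females. Every hypo pup lay below every control pup, with no overlap in either sex.

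Hypo+ pups lay between hypo and control pups on this probe. Values were 0.93, 1.82, 1.597 and 1.13 in the 4 hypo+ males and 2.02, 1.33 and 1.47 in the 3 hypo+ females. The range of hypo+ pups (0.93 to 2.02) overlapped both that of controls (1.56 to 3.04) and that of hypo pups (0.05 to 1.18). In the 10 hyper pups the lowest, median and highest values were 1.40, 2.31 and 3.35, a range that held all control values. The order of the treatment means was thus hyper, control, hypo+ and hypo. With the sexes together, each pair of neighbours in that order overlapped. Within each sex, the highest hypo and lowest hypo+ values were 0.51 and 0.93 in males, and 1.18 and 1.33 in females. The share of all probes with hypo+ above hypo in this way was not computed. The low hypo values also chose this probe, so nothing is read from that gap.

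Since these contrasts chose the family, their sizes are given as a description. The hypo minus control difference was −1.85 ± 0.31 (SE) log2 units in males and −1.55 ± 0.28 in females, or 3.62-fold and 2.92-fold lower. The hypo+ minus hypo difference was 1.03 ± 0.31 in males and 1.00 ± 0.31 in females. Hypo lay below control within each of the 7 slides that held both, with differences from −2.65 to −0.73. Hypo+ lay above hypo within each of the 4 slides that held both, by 0.42 to 1.78. Among all probes, hypo lay below control without overlap within each sex at 0.274%, and 0 of 10 family probes did so.

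The RefSeq E2f8 probe moved far less, a disagreement in goitrogen-treated pups that was part of the choice of the family. Its log2 ratio was −0.59, −1.22, −0.72 and −0.85 in control males and −0.62, −0.92, −0.90 and −1.01 in control females. It was −1.08, −0.89, −1.28 and −1.02 in hypo males and −1.11, −0.995, −1.01, −0.95 and −1.38 in hypo females, within the range of the controls except for 2 pups. The hypo minus control difference was −0.22 ± 0.16 in males and −0.23 ± 0.13 in females. It stayed low in hypo+ pups, with a lowest, median and highest value of −1.44, −1.19 and −0.92, and the hypo+ minus hypo difference was −0.08 ± 0.16 in males and −0.10 ± 0.14 in females. Unlike the AK158295 probe, it thus had its lowest mean in hypo+ pups. Hypo lay below control in 6 of 7 slides for this probe, with a median difference of −0.37 and a range from −0.57 to 0.33.

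**Figure D2:**
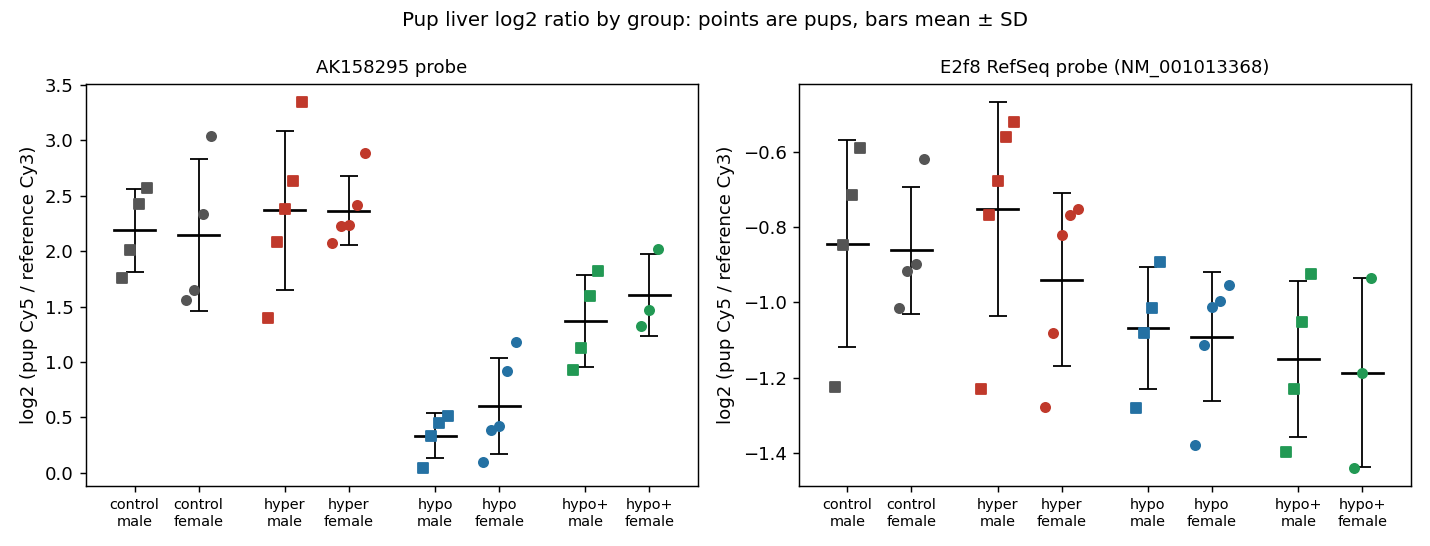
Log2 ratio of pup to reference signal for the AK158295 probe and the RefSeq E2f8 probe in 8 groups. Points are pups (squares male, circles female), horizontal bars are group means and error bars 1 SD, and the vertical axes differ. The 9 hypo pups lie between 0.05 and 1.18 on the AK158295 probe, below all 8 controls, while on the RefSeq probe hypo and control pups overlap.

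The other family probes had small differences between hypo and control pups. The 9 probes of E2f1 to E2f7 differed by −0.08 to 0.11 among males and by −0.12 to 0.07 among females, each within 2 SE of 0. The 10 family probes included 0 called at an adjusted p under 0.05 in either sex, where the share of all probes called was 0.0971% for males and 0.155% for females. A fit of all 34 pups with sex as a term called 1.28% of all probes and 0 of 10 family probes. Hypo+ pups lay farther from the controls on several probes. E2f7 differed by −0.39 ± 0.20 in males and −0.35 ± 0.15 in females, E2f2 by −0.31 ± 0.17 and −0.33 ± 0.16, and E2f1 (A_52_P587611) by −0.17 ± 0.07 and −0.27 ± 0.11. The RefSeq E2f8 probe differed by −0.31 ± 0.16 and −0.33 ± 0.14. In hypo+ against control pups the counts called were 0 of 10 in males (0.0267% of all probes), 0 of 10 in females (0.0219%) and 0 of 10 with both sexes in 1 fit (1.32%). These 2 comparisons include the contrast on which the family was selected, and nothing is read from their counts.

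In pups with an intact thyroid, no family probe passed the test after hormone excess. Hyper pups were compared with the same controls as above, by limma in each sex alone with Benjamini-Hochberg adjustment over all 41174 probes. Differences of the 10 family probes ran from −0.10 to 0.10 log2 units for males and from −0.08 to 0.07 for females. The count called was 0 of 10 in males, against 0.0753% of all probes, and 0 of 10 in females, against 0.158%. At an unadjusted p under 0.05 it was also 0 of 10 in both sexes, where 2.98% of all probes in males and 6.15% in females lay under that value, and the fit over both sexes called 0 of 10 against 0.952%. The lowest adjusted p was 0.976 in females, and all were 1 in males.

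Among the activators, E2f1 (A_52_P587611) differed by 0.02 ± 0.06 in hyper males and 0.04 ± 0.09 in hyper females, and E2f2 by −0.02 ± 0.17 and 0.04 ± 0.14. The RefSeq E2f8 probe differed by 0.09 ± 0.15 and −0.08 ± 0.13, and E2f7 by −0.10 ± 0.19 and 0.00 ± 0.13. These errors allow shifts of about 2 SE in either direction, so a small change was not detectable with 4 against 5 pups. In the same pups the hormone target Thrsp, a regulator of lipid synthesis, was 0.74 ± 0.39 higher in males (adjusted p = 1) and 1.28 ± 0.31 higher in females (adjusted p = 0.18), which also did not pass in either sex. The fit of both sexes called Thrsp, which rose by 1.01 ± 0.26 (adjusted p = 0.0435).

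Hormone given to goitrogen-treated pups went with lower values on most family probes, of which 1 passed the test in the fit of both sexes. In hypo+ against hypo pups, 9 of 10 probes had a difference below 0 in males and 10 of 10 in females. The median difference over all probes was −0.009 in males and −0.005 in females. These counts hold 2 probes each of E2f1 and E2f3. None passed when each sex was fitted alone, 0 of 10 in males against 0.369% of all probes and 0 of 10 in females against 0.556%. An unadjusted p under 0.05 was reached by 3 of 10 in each sex, against 9.18% of all probes in males and 7.76% in females. These were E2f1 (A_52_P587611), E2f2 and E2f7 in males and both E2f1 probes and E2f7 in females. With both sexes in 1 fit and sex as a term, which uses all 34 arrays, 1 of 10 was called, against 3.58% of all probes, and 1 of 10 was called lower, against 1.76%. The called probe was E2f1 A_52_P587611. The study analysed the sexes apart to avoid correlation through the dam, and the joint fit takes all pups as independent. With the first 2 digits of the animal number, which may mark the litter, as a random block, the call held (limma, adjusted p = 0.00701). The hypo+ against hypo comparison shares the hypo arrays with the one that chose the family.

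E2f1 is the activator best known for driving entry into S phase, and lies at chr2:154559400-154569892. Its log2 ratio on A_52_P587611 was −0.80, −0.84, −0.77 and −0.66 in hypo males and −0.92, −0.94, −1.10 and −1.0 in hypo+ males. It was −0.77, −0.95, −0.92, −0.66 and −0.54 in hypo females and −1.005, −1.12 and −1.18 in hypo+ females. Every hypo+ pup lay below every hypo pup of its own sex, which was so for 0.464% of all probes and for 1 of 10 family probes. The difference was −0.22 ± 0.07 in males (adjusted p = 0.223) and −0.33 ± 0.10 in females (adjusted p = 0.23). In the fit of both sexes E2f1 fell by 0.27 ± 0.06 on the log2 scale, 1.21-fold (limma, adjusted p = 0.00436). It was lower in all 4 slides that held both groups, by 0.08 to 0.24. Controls ranged from −0.99 to −0.69 and hyper pups from −1.01 to −0.58, so the hypo+ pups were also the lowest of the 4 treatments on average.

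The second E2f1 probe, A_51_P120636, pointed the same way without passing. It differed by −0.18 ± 0.11 in males and −0.23 ± 0.10 in females, and by −0.20 ± 0.08 with both sexes in 1 fit (adjusted p = 0.178). It was also dimmer, at a median of 1.78 times the limit against 4.93 times for A_52_P587611. Over the 34 pups the 2 E2f1 probes had r = 0.70. Of the limits on the E2f1 call, it was lost with median centring in place of loess normalisation (−0.34, adjusted p = 0.533) and with the Cy5 channel alone (−0.42, adjusted p = 0.239), and it held at adjusted p = 0.0484 with slide as a block. Leaving out each of the 34 arrays in turn kept it, at adjusted p from 0.00206 to 0.0186.

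E2f2, the second activator, had its lowest mean in hypo+ pups too. Its lowest, median and highest log2 ratios were −0.51, −0.17 and 0.25 in 9 hypo pups and −0.73, −0.53 and −0.08 in 7 hypo+ pups, so the groups overlapped. The difference was −0.39 ± 0.17 in males (adjusted p = 0.516) and −0.21 ± 0.15 in females (adjusted p = 0.864). The third activator, E2f3, differed by less than 0.10 on either probe in both sexes, with adjusted p from 0.746 to 0.991. Its 2 probes had r = 0.07 over the 34 pups, and both lay near the background limit.

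None of the repressors passed the test either. E2f4 differed by −0.09 ± 0.10 in males and −0.12 ± 0.10 in females, and E2f5 by −0.12 ± 0.08 and −0.08 ± 0.08. E2f6, the Polycomb-linked member and the brightest of the family over its limit, differed by 0.01 ± 0.11 and −0.15 ± 0.10. The lowest adjusted p among these 3 genes was 0.728. E2f5 was the only family probe with an unadjusted p under 0.05 between the sexes, 0.10 ± 0.04 higher in females averaged over treatments (adjusted p = 0.451).

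E2f7, an atypical repressor at chr10:110745439-110787384, had a difference about as large as that of E2f2 in males and of E2f1 in females, with a wider spread. Its log2 ratio was −1.27, −1.38, −1.65 and −1.53 in hypo males and −1.53, −2.05, −1.91 and −2.05 in hypo+ males. It was −1.49, −1.40, −1.56, −1.54 and −1.80 in hypo females and −1.70, −1.66 and −2.41 in hypo+ females. The groups overlapped in both sexes, through 1 hypo+ male and through 2 hypo+ females that lay above the lowest hypo female. The difference was −0.42 ± 0.20 in males (adjusted p = 0.53) and −0.37 ± 0.14 in females (adjusted p = 0.458). In the fit of both sexes it was −0.39 ± 0.12, 1.31-fold lower, and did not pass (adjusted p = 0.0649). It was below 0 in all 4 slides that held both groups, and −0.22 with slide as a block (adjusted p = 0.432). The female difference rested on 1 pup, being −0.12 without hypo+ female 601 (adjusted p = 0.923), and the joint fit passed in 6 of the 34 cases with 1 array left out. The spread of E2f7 was wide in controls as well, from −2.08 to −1.01.

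**Figure D3:**
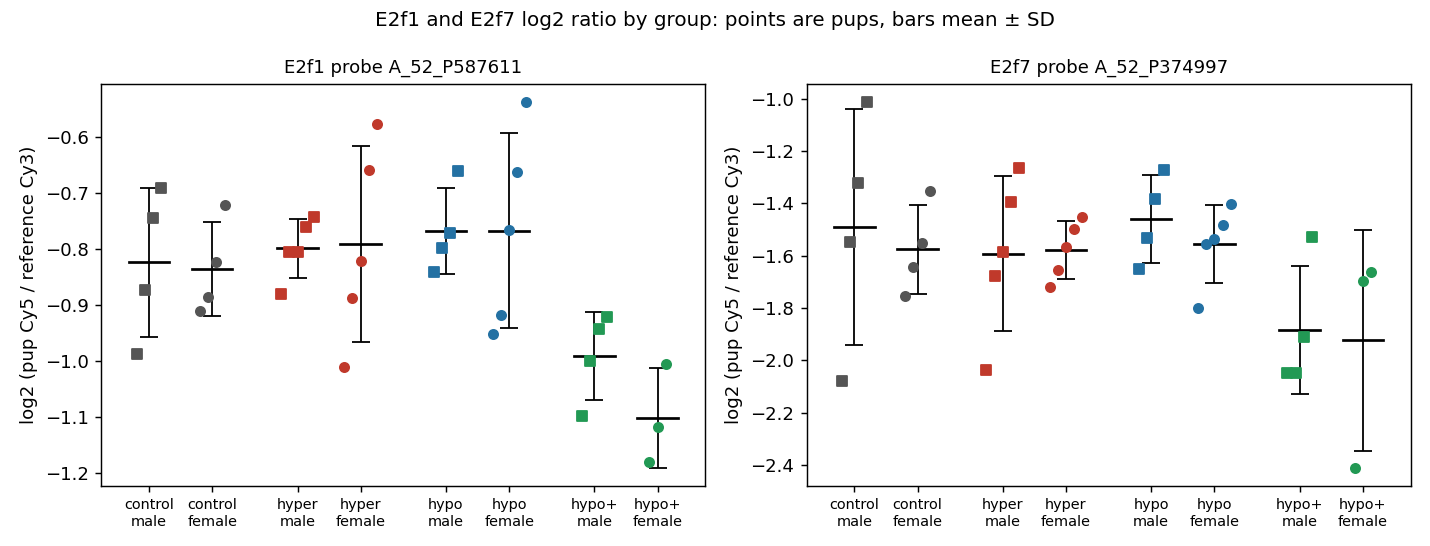
Log2 ratio of pup to reference signal for E2f1 (A_52_P587611) and E2f7 in 8 groups. Points are pups (squares male, circles female), horizontal bars group means and error bars 1 SD. On E2f1 the 7 hypo+ pups lie between −1.18 and −0.92, below all hypo pups of their sex, and on E2f7 hypo+ and hypo pups overlap.

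**Figure D4:**
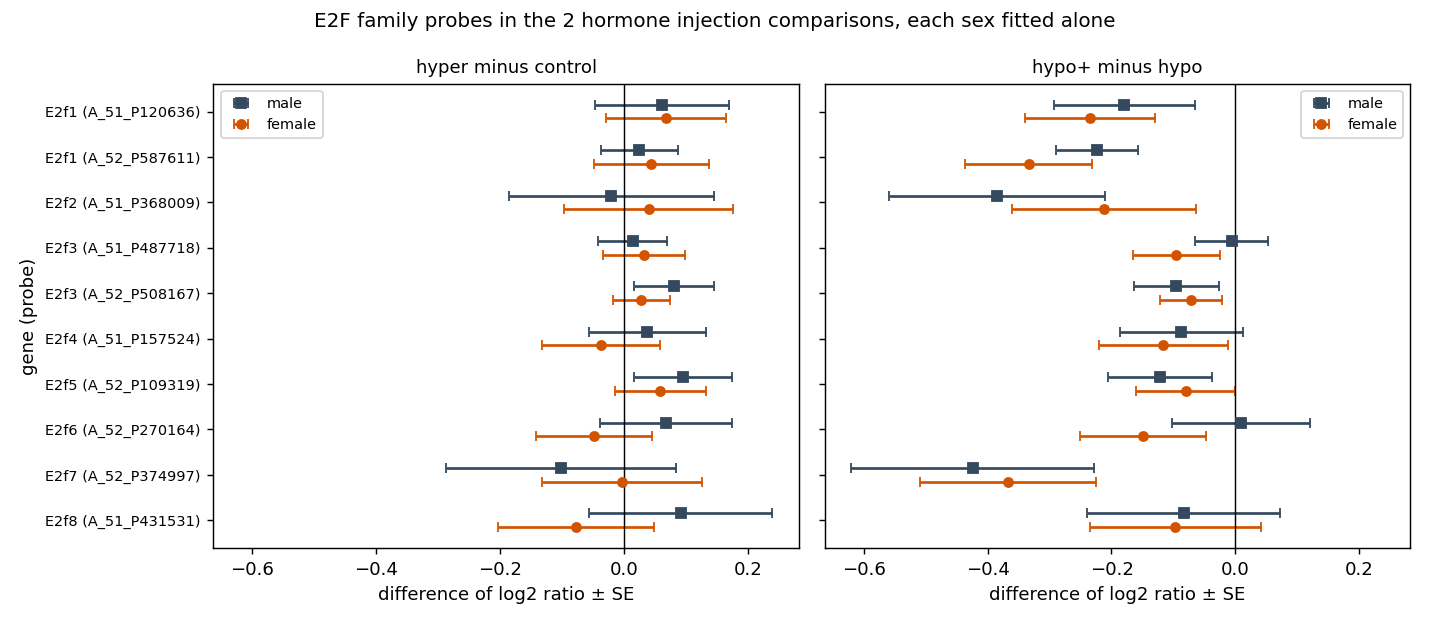
Differences of the log2 ratio with their SE for the 10 family probes, hyper minus control and hypo+ minus hypo, each sex fitted alone (squares male, circles female). Hyper minus control differences lie between −0.10 and 0.10. In hypo+ minus hypo, E2f1, E2f2 and E2f7 lie farthest below 0, and none passed an adjusted p of 0.05 in 1 sex alone.

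No family probe was called as different between the sexes or in its response between them. For females minus males, 0 of 10 were called against 0.0996% of all probes. The sex by treatment terms called 0 of 10 family probes and 0% of all probes for hypo, 0% for hyper and 0% for hypo+. At an unadjusted p under 0.05 these 3 terms also gave 0 of 10 family probes, where 1.04%, 1.26% and 1.33% of all probes lay under that value.

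Genes that work with the family or under it were taken from lists drawn up by function. In hypo+ against hypo pups with each sex alone, 0 of 30 measured G1/S target genes and 0 of 16 G2/M genes were called. Of all probes, 0.369% were called in males and 0.556% in females. The differences nonetheless lay below 0 for 26 of 30 G1/S genes in males and 29 of 30 in females. They lay below 0 for all 16 G2/M genes in both sexes. The median difference over the G1/S list was −0.31 in males and −0.32 in females, where the median of all probes was −0.01 in each.

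In that joint fit, 17 of the 30 G1/S targets fell and 1 rose between hypo and hypo+ pups. Of all probes, 1.76% were called lower and 3.58% in either direction. A listed gene counts if any of its probes was called, which can raise its share over that of single probes. Among those that fell were 4 subunits of the replicative helicase, Mcm3 (−0.35 ± 0.06, adjusted p = 0.000212), Mcm5 (−0.24 ± 0.05), Mcm6 (−0.41 ± 0.10) and Mcm7 (−0.35 ± 0.07). Cdt1, which loads that helicase onto origins, fell by 0.48 ± 0.09 (adjusted p = 0.000878). Tyms and Rrm1, which make DNA precursors, fell by 0.45 ± 0.12 and 0.33 ± 0.08, and Pcna, the sliding clamp of DNA polymerase, fell by 0.33 ± 0.09. The maintenance methylation genes Dnmt1 and Uhrf1 fell by 0.28 ± 0.06 and 0.54 ± 0.13. The gene that rose was Ung, a uracil DNA glycosylase, by 0.36 ± 0.09 (adjusted p = 0.0222).

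Of 16 G2/M genes, 4 fell in that fit, against 1.76% of all probes called lower. They were Bub1b, a spindle checkpoint kinase (−0.33 ± 0.08), and Ect2, an activator of RhoA in cytokinesis (−0.71 ± 0.20). The others were Nusap1, a spindle protein (−0.58 ± 0.16), and Top2a, a topoisomerase (−0.40 ± 0.10). With the first 2 digits of the animal number, which may mark the litter, as a random block, 16 of 30 and 4 of 16 were called lower. With slide as a fixed block the counts were 4 of 30 G1/S targets and 0 of 16 G2/M genes, and with median centring both were 0. The G2/M count went from 1 without hypo+ male 761 or without hypo+ female 601 to 10 without hypo+ male 546 or without hyper male 498, and was 2 without hypo male 891, hypo male 576 or hypo+ male 363. Granulocyte markers also had a lower median in hypo+ pups in that fit (−0.48 over 5 genes, 0 called). Of these 5 genes 4 or 5 were above the limit in each pup, and their summed signal was 72.7 to 370.8 times the limit in hypo and 68.7 to 184.7 times in hypo+ pups. Erythroid markers had a median of −0.02 over 11 genes, 0 called, with summed signals of 202 to 451.6 and 210.5 to 467.5 times the limit. The part of either cell type in the result was not tested.

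In hyper against control pups 0 of 30 G1/S targets and 0 of 16 G2/M genes were called, in either sex or with both sexes in 1 fit. The share of all probes called was 0.0753% in males, 0.158% in females and 0.952% in the fit of both sexes. Against the controls, the goitrogen groups are given by their differences in the joint fit. In hypo pups the median was 0.02 for the G1/S targets, with 20 of 30 above 0, and −0.05 for the G2/M genes, with 16 of 16 below 0. In hypo+ pups the medians were −0.30, with 27 of 30 below 0, and −0.45, with 16 of 16 below 0.

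Of the direct partners of the family, 3 genes were called in the joint fit, where 3.58% of all probes were called. They came from lists of 2 dimer partners, 3 pocket proteins and 6 genes of the MuvB complex and its partners. Tfdp1, the DP partner that typical E2F proteins need to bind DNA, fell by 0.18 ± 0.04 between hypo and hypo+ pups (adjusted p = 0.00946), and Rbl1, the pocket protein p107, by 0.35 ± 0.09 (adjusted p = 0.0248). Lin37, a subunit of the MuvB complex that joins E2F4 and pocket proteins in quiescent cells, fell by 0.18 ± 0.05 (adjusted p = 0.0305). All 3 calls held with the first 2 digits of the animal number as a random block (adjusted p = 0.0158, 0.034 and 0.0412) and none with median centring (0.66, 0.279 and 0.613). With slide as a fixed block Rbl1 was lost (adjusted p = 0.191), and with scan day as a block Rbl1 (0.0627) and Lin37 (0.0885). Tfdp2, Rb1 and Rbl2 had differences of −0.15 ± 0.07, −0.07 ± 0.08 and 0.02 ± 0.08 and did not pass. Of 10 genes of the PRC1.6 complex that holds E2F6, 0 were called in this comparison, and of 15 G1/S regulators such as cyclins and their inhibitors also 0. With each sex alone, 0 genes of these 4 lists and of the G1/S regulators were called.

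E2f7 and E2f8 followed each other from pup to pup. Over 34 pups the log2 ratios of the 2 genes had r = 0.71, and r = 0.79 after the 8 group means were removed, the highest of the pairs of different family genes. The AK158295 probe and the RefSeq E2f8 probe had r = 0.44, and r = 0.16 after the group means were removed. All probes of an array share its labelling and reference, so these values are descriptions. The mean log2 ratio of the 30 G1/S targets had r = 0.81 with E2f7, 0.66 with the RefSeq E2f8 probe and 0.04 with the AK158295 probe. Without the group means these were 0.77, 0.63 and −0.15. The 2 E2f1 probes differed, with 0.52 on A_52_P587611 and 0.10 on A_51_P120636, and 0.06 and −0.39 without the group means. The mean of 3 hormone targets (Dio1, Thrsp and Me1) had r = 0.84 with the AK158295 probe and 0.28 with the RefSeq E2f8 probe, and 0.47 and 0.05 without the group means. These targets were also low in hypo pups, and the AK158295 probe chose the family by its fall there. Its r over all pups was thus partly set by that choice.

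**Figure D5:**
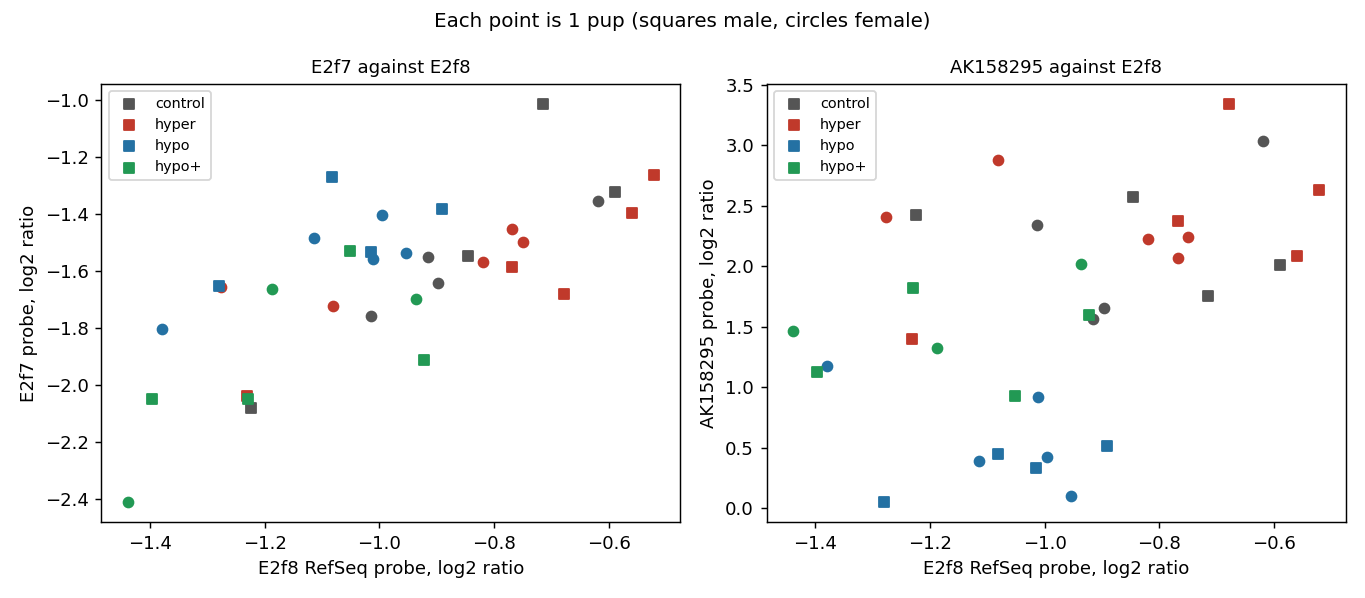
Log2 ratio of E2f7 (left) and of the AK158295 probe (right) against the RefSeq E2f8 probe, 1 point per pup (squares male, circles female) coloured by treatment. E2f7 and E2f8 have r = 0.71 over 34 pups, and AK158295 and E2f8 have r = 0.44, with the hypo pups forming the low band on the AK158295 axis.

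The genes whose pattern was most like each probe are given as a description. Among 12980 genes with a probe present on all arrays, those most like the RefSeq E2f8 probe over the 34 pups were Cenpi (r = 0.83), Tube1 (0.80), Cask (0.80), Fanca (0.80) and Kif18a (0.79). Cenpi encodes a centromere protein, Fanca a Fanconi anaemia protein and Kif18a a mitotic kinesin. After the group means were removed they were Psmc3ip (0.84), Irf2 (0.82), Gas2l3 (0.82), Nucks1 (0.82) and Cask (0.81). For the AK158295 probe, compared with 12981 genes, they were Nrp1 (0.93), a receptor of semaphorins and vascular growth factors, Grin3b (0.87), Ggct (0.86), Adgrv1 (0.86) and Ankrd2 (0.85). Nrp1 (0.72) and Grin3b (0.71) were again the nearest after the group means were removed, followed by Mindy1 (0.67), Bloc1s3 (0.67) and Pom121 (0.63). The 2 probes shared 0 of these 5 genes in either measure. Lists this short from so many genes seldom share any, so nothing is read from that count. The values of the AK158295 probe over all pups also hold the fall in hypo pups that chose the family.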

How the data were processed

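The deposited scanner files give Cy5 and Cy3 median intensity and local background per spot, with flags and a log10 ratio computed by the Agilent software, per the file headers. The authors also deposited log2 ratios per spot. Without background subtraction, median intensities were normalised within arrays by loess in limma 3.58.1 (R 4.3.3), flagged spots (77 to 212 an array) and control spots were left out, and spots of a probe were averaged. Median Cy5 intensity per array was 146 to 199, and 60.8% to 79.4% of probes were well above background. The number of arrays limits the precision. Groups followed the labels. Sexes were fitted separately with all 4 treatments, as the study did, with Benjamini-Hochberg adjustment over 41174 probes at 0.05. Of 33541 accessions, 16806 matched a symbol (RefSeq, GRCm38.p6). A listed gene was called if any of its probes was, and the brightest probe gave its value. Every family probe is named, as are list genes called in a comparison, 5 partner genes and 3 hormone targets. The members and lists were chosen with earlier results of these data known. The fit was tested on simulated data. Alternatives were background correction, centring, source of the ratio, filter, slide or scan day as a block, samples in the fit and arrays left out.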

Additional observations from a re-analysis of the deposited data

Results flagged for a closer look

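One value lay far from the rest of its group in 77 tests over 11 probes and the groups of 4 or 5 pups, where chance alone flags about 1 group in 20. On the E2f3 probe A_52_P508167, hyper female 861 had a log2 ratio of −0.46, and the other 4 hyper females lay between −0.61 and −0.58. That gap was 0.804 of the range of the group.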

How the results depend on the processing

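With each sex fitted alone, 0 of 10 family probes were called in all comparisons under every other setting run and with each array left out, except that pooling the sexes called 1 in hypo+ minus hypo, and 1 also with the first 2 digits of the animal number as a random block. That pooled count became 0 with median centring, 2 with the software log ratio and 2 with scan day as a fixed block. It ranged from 1 to 2 with each array left out. The second call was not E2f7 with the software log ratio (limma, adjusted p = 0.0546) or with scan day (0.185). With the Cy5 channel alone the count was 1 through another family probe, as E2f1 A_52_P587611 (0.239) and E2f7 (0.0933) did not pass. The fits of the pooled count under other settings were chosen after seeing the data. The 17 G1/S targets called lower became 0 with median centring and 4 with slide as a fixed block, and 12 to 21 with each array left out. The 4 G2/M genes became 0 with median centring, with slide or with scan day as a fixed block, 1 with the Cy5 channel alone and 7 in a fit of the 2 groups alone, and 1 to 10 with each array left out. The AK158295 difference between hypo+ and hypo pups was 1.64 in males and 1.56 in females with the software log ratio. The cause of these shifts was not tested. No paired analysis by replicate number was possible because the groups share none, and slide, scan day and the first 2 digits of the animal number served as blocks instead. Probes within a few fold of the background limit, such as both of E2f3, have compressed ratios. Shifts well over 2 SE could also fail the adjusted test, as Thrsp did in hyper females (1.28 ± 0.31, limma, adjusted p = 0.18).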
